A study of Mus musculus with 3 samples.

Results

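Hopx and 5 genes whose proteins act with it on chromatin or on muscle gene promoters were followed in mouse embryoid bodies: Hopx, the deacetylase genes Hdac1, Hdac2 and Hdac3, the acetyltransferase complex gene Epc1, and the transcription factor gene Srf. Every array probe whose RefSeq accession belongs to one of these 6 symbols was taken, whatever its value. These 6 genes, of 21153 that the array names, had 12 probes on 21 spots per array, of 39429 distinct probes that are not controls. All 12 passed the filter on dim probes, as did 24376 probes in all.

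Each of 3 two-colour Agilent arrays set RNA of Hopx-/- embryoid bodies grown with a Wnt inhibitor (called null cultures with XAV939 here) directly against RNA of Hopx+/- embryoid bodies (heterozygous cultures). Embryoid bodies are clusters formed by embryonic stem cells as they differentiate in hanging drops. The lines were derived from blastocysts of each genotype on feeder cells, and how many lines stand behind the 3 biological replicates was not stated in those labels. All cultures were harvested on day 8 of differentiation towards heart cells with the same growth factors, and XAV939, a tankyrase inhibitor that lowers β-catenin, was at 12.5 µM. The heterozygous cultures keep 1 copy of Hopx and are not wild type. Genotype and inhibitor changed together, so their parts cannot be told apart.

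HOPX has a homeodomain that lacks the residues for contact with DNA, so it acts through other proteins. In mouse heart it binds SRF, the serum response factor, and keeps it off its sites, and it draws in histone deacetylases of class I, HDAC2 among them. EPC1, first known as a partner of polycomb proteins and a scaffold of the TIP60 acetyltransferase complex, binds HOPX and works with SRF in muscle cells. Deacetylases remove acetyl groups from histones and from factors such as GATA4, which mostly lowers transcription, while acetyltransferases do the reverse.

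By the labels, Cy5 held the null RNA throughout. Read that way, replicate 3 ran opposite to replicates 1 and 2 across tested probes (Pearson r -0.88 and -0.91), while replicates 1 and 2 had an r of 0.96. The sign of replicate 3 was turned, following the authors' own processed table. The direction rests on the labels of replicates 1 and 2 and on those values, and is likely rather than settled. If the opposite reading held for all arrays, every sign below would turn. With replicate 3 as labelled, limma called 0 probes (30 higher and 66 lower at an unadjusted p below 0.05). Ratios are log2 of the null cultures with XAV939 over the heterozygous ones, and per-group signals are log2 intensities after normalization, which hold no order between probes.

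Of 24376 probes tested, 28.7% were called higher and 31.4% lower (60.2% in either direction, limma adjusted p below 0.05), so a call by itself sets no probe apart. Probes well above background made up 56.6% to 66.6% of those in the null channel and 61.6% to 68.0% in the heterozygous channel. In the null cultures with XAV939 all 6 markers of cardiomyocytes were lower, with a summed signal of 18968 to 23409 against 89354 to 105798 in heterozygous cultures. All 6 endoderm markers were lower too (4402 to 9569 in null cultures with XAV939, 114910 to 133285 in heterozygous ones). All 6 pluripotency markers were higher (65563 to 101758 in null cultures with XAV939, 10664 to 14730 in heterozygous ones). Of 6 endothelial and blood markers 4 were higher (50578 to 71288 in null cultures with XAV939, 37038 to 51180 in heterozygous ones). That count was 2 without replicate 1, and 1 when local backgrounds that the scanner software marks as outliers were kept rather than replaced. The summed signal here is mostly that of the globin gene Hbb-bh1 (mean log2 15.46 in null cultures with XAV939, 15.07 in heterozygous ones). It says little about the other markers of this list. Hbb-bh1 is also 1 of the 4 (ratios 0.66, -0.04 and 0.55), and its call was lost in 7 alternatives in processing. Dnmt3b (15.73) likewise weighed most in the pluripotency sum of null cultures with XAV939. Of 6 fibroblast markers 1 was higher and 4 were lower (16172 to 25811 in null cultures with XAV939, 30948 to 44290 in heterozygous ones). None of these 30 markers was below background on any array in either group. The part of these shifts in cell makeup in the results below was not tested, and in bulk RNA fewer cells of a type cannot be told apart from less RNA per cell. Of 3 Y-linked genes tested, Eif2s3y was lower (-1.92 ± 0.25), and Ddx3y lay at -0.31 ± 0.30 without passing. Uty was not well above background on any array in the null cultures, so it has only a bound there, at least 1.13-fold lower, and it did not pass (limma adjusted p = 0.0852). Uty was called lower with the Feature Extraction ratios (adjusted p = 0.00413), and with dye orientation as a term both Uty (adjusted p = 0.0191) and Ddx3y (adjusted p = 0.0174) were. Whether the lines differ in sex was not tested.

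Hopx fell in the null cultures with XAV939 on both of its probes, and Hdac1 rose on all 3 of its probes. Hdac2 rose by a small amount from a dim signal, and 1 of 3 Epc1 probes and 1 of 2 Srf probes rose. Hdac3 did not pass. In all, 6 of the 12 probes were higher, 2 lower and 4 did not pass, and 8 had groups that did not overlap in signal, against 64.1% of all tested probes. The share called among the 12 lay close to the 60.2% among all probes.

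**Figure D1:**
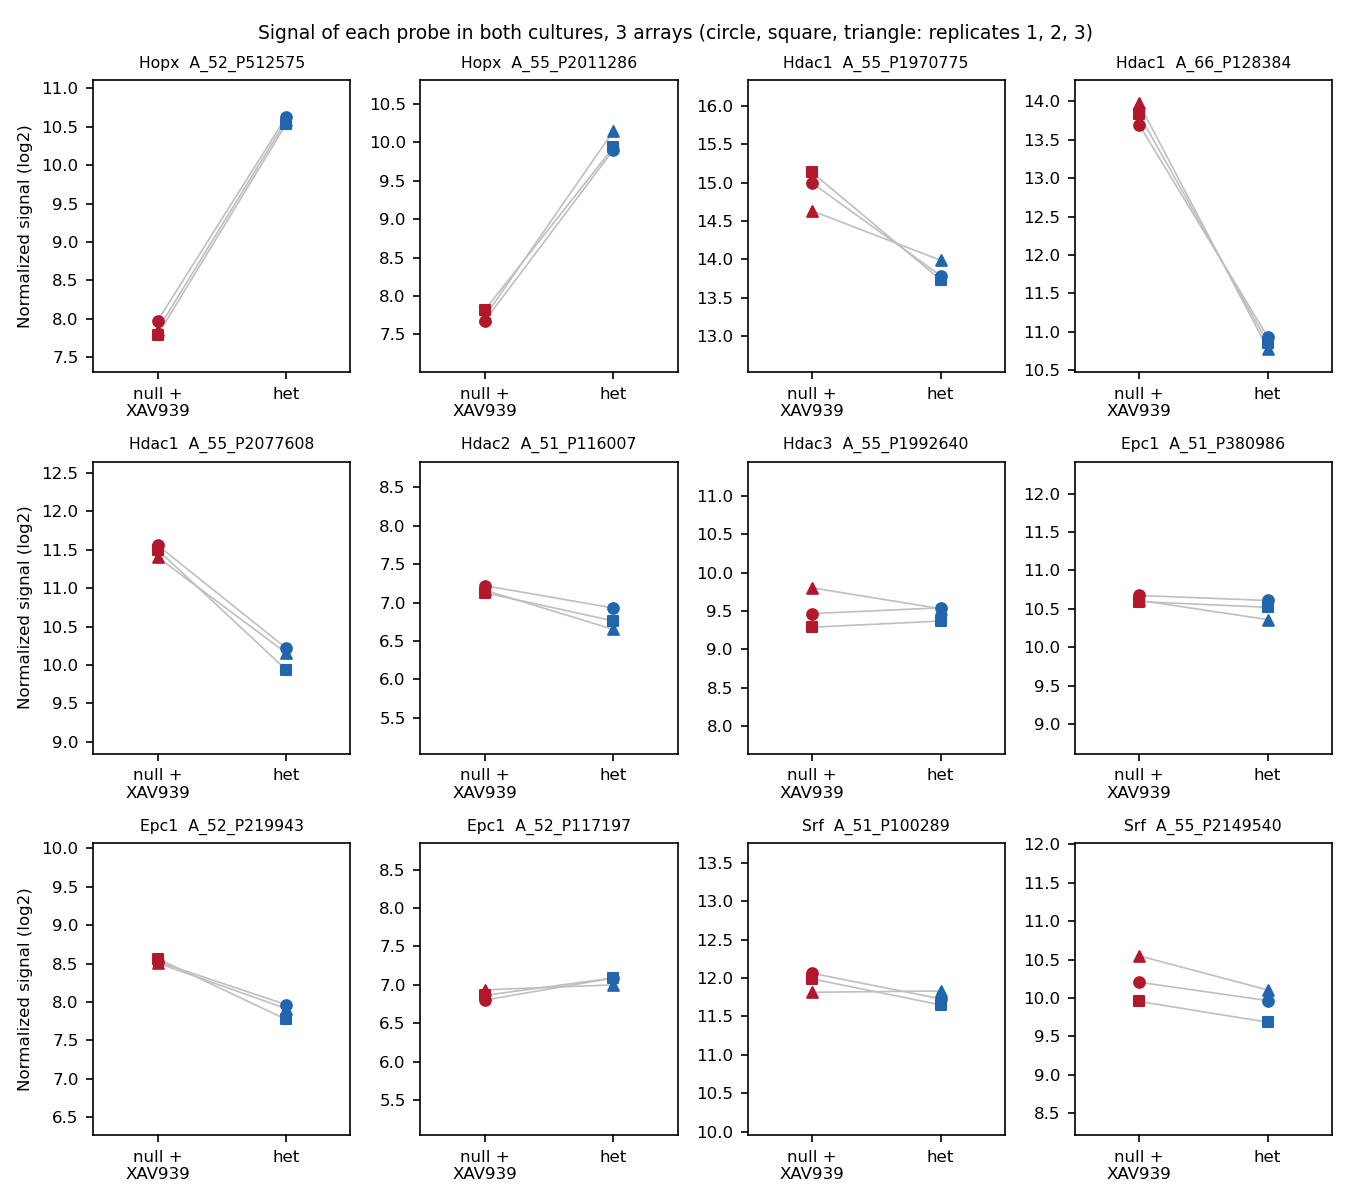
Normalized log2 signal of each of the 12 probes (vertical axis, all panels spanning the same range) in null cultures with XAV939 (left, red) and heterozygous cultures (right, blue), with 1 symbol per replicate and a grey line joining the channels of an array. Hopx and Hdac1 are the genes whose groups lie far apart, and the lines of Hdac3 and of the brighter Srf probe differ in direction between replicates.

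Hopx, measured by 2 probes for the transcript NM_175606, is the gene that the null genotype targets. Its brighter probe, A_52_P512575, had signals of 7.97, 7.79 and 7.86 in null cultures with XAV939, against 10.63, 10.53 and 10.58 in heterozygous cultures. In the main processing the groups lay far apart and hardly varied within themselves. The mean ratio was -2.71 ± 0.05 (SD, n = 3 here and below), which is 6.54-fold lower (limma adjusted p = 3.46e-07, 95% interval -2.93 to -2.49).

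The dimmer Hopx probe, A_55_P2011286, had signals of 7.68, 7.82 and 7.73 in null cultures with XAV939, against 9.90, 9.93 and 10.15 in heterozygous cultures. Its ratio of -2.25 ± 0.15 is 4.77-fold lower (limma adjusted p = 8.77e-07). With the slide as a random block (array 1 on 1 slide, arrays 2 and 3 on another) it did not pass (adjusted p = 0.0583), while the brighter probe did (adjusted p = 0.0438). On each array this probe showed the smaller fall, by 0.43, 0.63 and 0.31. Replicates 1 and 2 alone, read exactly as labelled, gave -2.70 and -2.17.

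Hopx signal did not drop to the level of empty spots in the null cultures. Before normalization the brighter probe had median pixel intensities of 319, 306 and 145 in null cultures with XAV939 (replicates 1, 2 and 3), while the brightest of 153 negative control spots in the same channel reached 139.5, 78 and 46. The same probe read 1156, 1380 and 1669 in heterozygous cultures. Both probes were well above background in both groups on all 3 arrays. Where the 2 probes sit relative to the deletion in Hopx was not analysed here, so the remaining signal checks the labels only in part. With the dye-normalized signals of Feature Extraction, the scanner's own software, the brighter probe was at -3.03 ± 0.24. In the authors' processed values it was at -2.26 on average, with -1.79, -2.425 and -2.57 on replicates 1, 2 and 3. The close match between replicates in the main processing thus did not hold in these settings. The smallest mean falls came with marked local backgrounds kept, at -2.02 for this probe and -1.57 for the dimmer one, and both passed.

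Of 14705 genes taken by their brightest tested probe, 95 had a lower ratio than Hopx. The 5 genes whose ratios on the 3 arrays lay closest to those of Hopx, by the root mean square difference, were Myl3 (0.022), a ventricular myosin light chain gene, Cdh6 (0.038), a cadherin gene, Rhox5 (0.059), an X-linked homeobox gene, S100a1 (0.061), a calcium-binding protein gene of heart muscle, and Eva1a (0.062). Myl3 had ratios of -2.62, -2.76 and -2.71, against -2.65, -2.75 and -2.73 for Hopx. Likeness over 3 arrays says only that the ratios were close in size.

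The tested genes within 6 genes of Hopx on its chromosome had ratios nearer to 0 than its own. Of the 6 genes on each side in the RefSeq gene table, 4 were tested. Arl9, Srp72 and Paics stood 4, 5 and 6 genes before Hopx and Spink2 6 genes after it, and no nearer gene was tested. Srp72, a signal recognition particle gene, was lower by much less (-0.65 ± 0.18), Spink2, a protease inhibitor gene, was slightly higher (0.34 ± 0.09), and Paics (0.21 ± 0.17) and Arl9 (-0.09 ± 0.18) did not pass. The call for Spink2 was lost in 6 of 13 alternatives in processing (replicate 3 as labelled, where no call remained, is not counted here or in later counts of alternatives). Gm51293 and LOC115490297, the direct neighbours, had no probe named by accession.

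Upstream sequence was matched by symbol for 3 of the 6 genes in RefSeq (GRCm38.p6). It is shown for Hopx and Srf, the 2 whose 250 bases before a start hold a CArG box, the site that SRF binds. The letters searched were CC, then 6 bases that are each A or T, then GG, a pattern that is its own reverse complement and so covers both strands. Capitals mark the matches. Hopx has 2 starts in the table, and the upstream one, at chr5:77115124-77115373 on the minus strand, holds 1 match that begins 83 bases before the start:
Hopx upstream start: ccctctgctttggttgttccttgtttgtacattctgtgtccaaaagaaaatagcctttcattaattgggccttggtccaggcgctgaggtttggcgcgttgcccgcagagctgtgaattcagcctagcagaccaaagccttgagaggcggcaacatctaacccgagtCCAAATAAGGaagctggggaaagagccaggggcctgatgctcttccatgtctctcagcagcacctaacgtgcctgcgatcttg
The Srf window, chr17:46556163-46556412 on the minus strand, holds 2 matches, 82 and 62 bases before the start:
Srf: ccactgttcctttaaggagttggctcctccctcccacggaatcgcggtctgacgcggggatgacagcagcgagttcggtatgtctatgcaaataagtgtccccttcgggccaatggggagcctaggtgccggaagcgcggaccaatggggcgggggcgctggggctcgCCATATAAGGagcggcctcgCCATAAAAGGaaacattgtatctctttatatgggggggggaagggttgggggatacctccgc

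Of 32851 promoter windows of this length in the table, 1.47% hold such a box. The window of the second Hopx start and that of Hdac2 hold none of these letters. A match is a stretch of letters and no sign of binding.

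Hdac1, which encodes a class I deacetylase of the NuRD, SIN3 and CoREST complexes, rose on all 3 probes, and the probes differed in how much. All 3 carry the accession NM_008228. Probe A_66_P128384 had signals of 13.70, 13.83 and 13.97 in null cultures with XAV939, against 10.94, 10.86 and 10.78 in heterozygous cultures. The groups were separated by more than 2 log2 units on every array. The ratio of 2.97 ± 0.21 is a 7.86-fold rise (limma adjusted p = 4.15e-07).

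The other Hdac1 probes rose less. Probe A_55_P2077608 had 11.40 to 11.56 in null cultures with XAV939, against 10.22, 9.94 and 10.16 in heterozygous cultures, a 2.61-fold rise (1.38 ± 0.16, limma adjusted p = 1.08e-05). The brightest probe, A_55_P1970775, had 15.00, 15.13 and 14.63 in null cultures with XAV939, against 13.79, 13.73 and 13.99 in heterozygous cultures. Its groups did not overlap either, and replicate 3 showed the smallest gap. Its ratios were 1.21, 1.40 and 0.64, a 2.12-fold rise on average (1.08 ± 0.39, limma adjusted p = 0.000261). No spot of these probes was marked as saturated.

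The ratio of A_66_P128384 exceeded that of A_55_P2077608 by 1.42, 1.41 and 1.94 on replicates 1, 2 and 3, a mean difference of 1.59 ± 0.31. It exceeded that of A_55_P1970775 by 1.89 on average. The size of the Hdac1 rise therefore depends on the probe, from 2.12-fold to 7.86-fold. The probes' own sequences and any pseudogene copies they could also detect were not analysed here. With the slide as a random block, A_66_P128384 passed (limma adjusted p = 0.0473), while A_55_P1970775 (adjusted p = 0.402) and A_55_P2077608 (adjusted p = 0.113) did not.

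**Figure D2:**
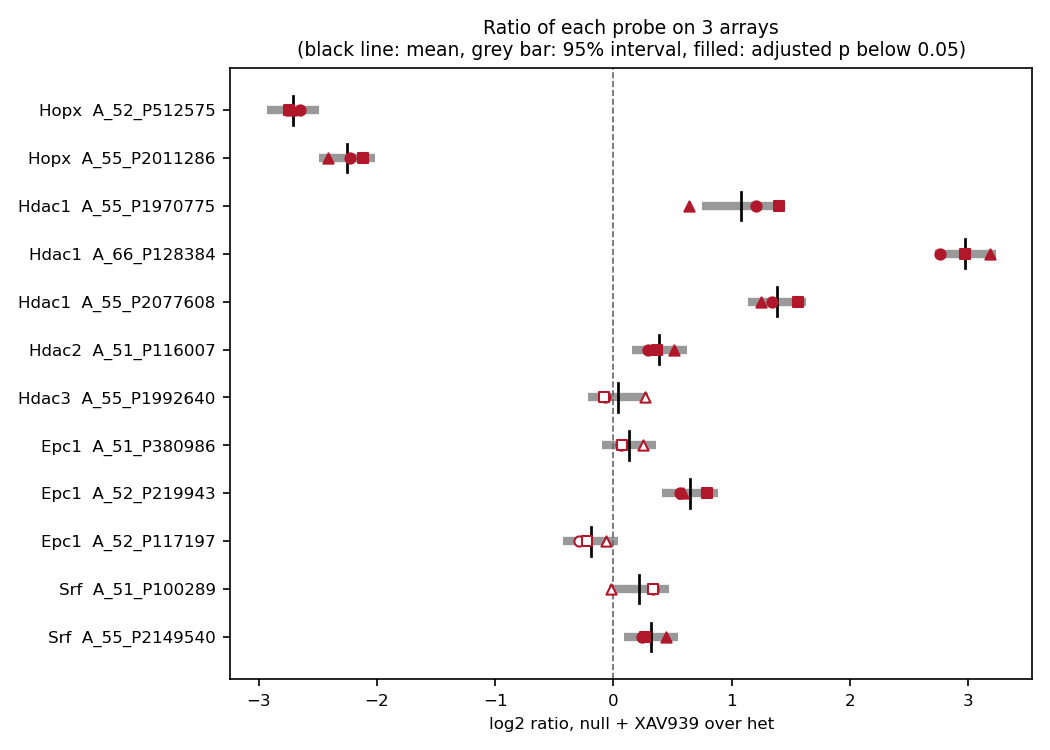
Log2 ratio of null cultures with XAV939 over heterozygous cultures (horizontal axis) for each of the 12 probes, with 1 symbol per replicate, the mean as a black line and its 95% interval as a grey bar. Filled symbols mark probes with a limma adjusted p below 0.05. The 3 Hdac1 probes lie at 1.08, 2.97 and 1.38, and both Hopx probes lie below -2.

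Hdac2, the class I deacetylase that HOPX recruits in mouse heart, was measured by a single probe, A_51_P116007 (NM_008229), printed on 10 spots of each array. Its signals were 7.22, 7.13 and 7.16 in null cultures with XAV939, against 6.93, 6.76 and 6.65 in heterozygous cultures. The groups did not overlap but lay close together. The ratios of 0.29, 0.37 and 0.51 gave a mean of 0.39 ± 0.11, a 1.31-fold rise (limma adjusted p = 0.00933).

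The repeated spots show how well a single array measured Hdac2. On replicate 1 the 10 spots ran from -0.02 to 0.49 with a median of 0.31, and 9 were above 0. On replicate 2 they ran from 0.22 to 0.57 (median 0.34), and on replicate 3 from 0.40 to 0.62 (median 0.51), with all 10 above 0 on both. The SD between spots of 1 array was 0.15, 0.14 and 0.07. The SD of 0.11 between arrays is that of means over 10 spots, so it cannot be set directly against these.

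**Figure D3:**
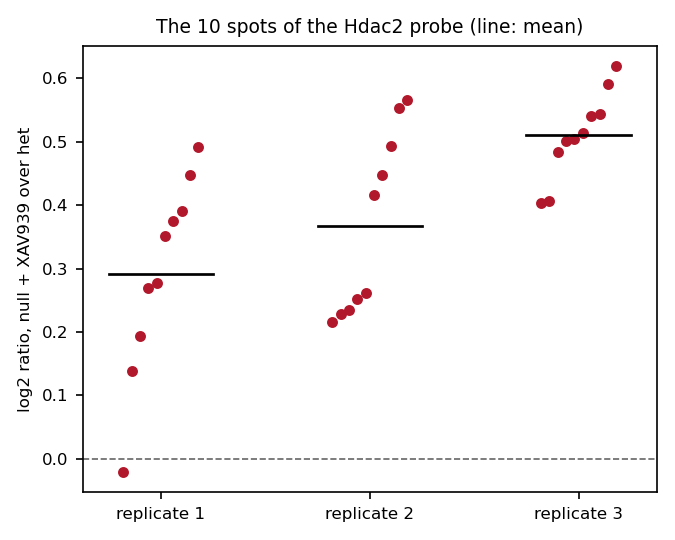
Log2 ratio of null cultures with XAV939 over heterozygous cultures (vertical axis) at each of the 10 spots of the Hdac2 probe on the 3 arrays, with the array mean as a line. On replicate 1 a single spot falls below 0, at -0.02, and on replicates 2 and 3 all spots lie above 0.

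The Hdac2 probe was dim. Its raw intensities averaged 193, 158 and 90.9 in null cultures with XAV939 and 77.7, 76.2 and 97.8 in heterozygous cultures, over local backgrounds of 28.6 to 44.8. The size of its rise differed between settings. It was 0.45 with no background subtraction. The Feature Extraction ratio was 0.84, while the authors' processed values gave 0.19, which did not pass (limma adjusted p = 0.295), and -0.05 on replicate 1. Hdac2 also did not pass without replicate 2 (adjusted p = 0.0662) or with the slide as a block (adjusted p = 0.433). Its adjusted p ran from 0.000376 to 0.433 over 13 alternatives, those with replicate 3 turned.

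Hdac3, the catalytic subunit of the NCoR corepressor complex, did not pass the test. Its probe A_55_P1992640 (NM_010411) had signals of 9.47, 9.29 and 9.80 in null cultures with XAV939, against 9.54, 9.37 and 9.53 in heterozygous cultures, so the groups overlapped. Replicates 1 and 2 gave ratios of -0.08 and -0.08, and replicate 3 gave 0.27. The mean was 0.04 ± 0.20 (limma adjusted p = 0.783), with a 95% interval of -0.22 to 0.29. Its sign turned to -0.08 without replicate 3 and to -0.05 in the authors' processed values.

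The 3 Epc1 probes carry 3 different RefSeq accessions, and 1 was called higher while the others did not pass. Probe A_52_P219943 (NM_001276350) had signals of 8.52, 8.56 and 8.51 in null cultures with XAV939, against 7.96, 7.77 and 7.91 in heterozygous cultures. The groups did not overlap, and the ratio of 0.65 ± 0.13 is a 1.57-fold rise (limma adjusted p = 0.000652). This call was lost with local backgrounds marked as outliers kept (0.40, adjusted p = 0.0658) and with the slide as a block (adjusted p = 0.255).

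The brightest Epc1 probe, A_51_P380986 (NM_007935), had 10.67, 10.59 and 10.61 in null cultures with XAV939, against 10.61, 10.52 and 10.36 in heterozygous cultures, with overlap. It lay at 0.13 ± 0.10 and did not pass (limma adjusted p = 0.292, 95% interval -0.10 to 0.36). The dimmest, A_52_P117197 (NM_027497), had 6.80, 6.86 and 6.93 in null cultures with XAV939, against 7.09, 7.09 and 7.00 in heterozygous cultures. Its groups did not overlap, yet its ratio of -0.19 ± 0.11 did not pass (limma adjusted p = 0.131). It passed as lower without replicate 3 (-0.26, adjusted p = 0.0245). On replicate 1 the local background of this spot was marked as an outlier and replaced.

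On each array the NM_001276350 probe lay above the NM_027497 probe, by 0.85, 1.02 and 0.66. Whether these differences between probes follow isoforms was not tested.

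Srf encodes the serum response factor, which binds the CArG box and drives genes of muscle and of the early response to growth factors. Probe A_55_P2149540 (NM_020493) had signals of 10.21, 9.96 and 10.55 in null cultures with XAV939, against 9.97, 9.69 and 10.11 in heterozygous cultures. The signals overlapped between groups, but within each array the null culture was higher, with ratios of 0.24, 0.27 and 0.44. The mean of 0.32 ± 0.11 is a 1.25-fold rise (limma adjusted p = 0.0234). It did not pass in 6 of 12 alternatives, with the adjusted p running from 0.00147 to 0.548, and without replicates 1 and 2 in turn it was 0.065 and 0.115.

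The brighter Srf probe, A_51_P100289, for the same transcript, had 12.06, 11.99 and 11.81 in null cultures with XAV939, against 11.73, 11.65 and 11.83 in heterozygous cultures. Its ratios were 0.33, 0.34 and -0.02, with a mean of 0.22 ± 0.20 that did not pass (limma adjusted p = 0.123, 95% interval -0.04 to 0.47). It passed as higher without replicate 3 (0.34, adjusted p = 0.00547). The interval of the other probe ran from 0.09 to 0.55.

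Replicate 3 stood apart from replicates 1 and 2 for several members. It gave the lowest ratio for the brightest Hdac1 probe and the brighter Srf probe, and the highest for Hdac2 and Hdac3. In the reading used here it is also the array with the null RNA in Cy3. With dye orientation as a second term in the fit, an alternative chosen after seeing the data, no call of the 12 probes changed. Replicate 3 is the only array of its orientation, so this fit cannot separate dye from replicate 3. Its residual spread comes from replicates 1 and 2 alone, so the kept calls say little about dye. That fit called 71.9% of all probes and 74.9% of genes, 36.2% higher and 38.8% lower.

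For the wider complexes each gene was taken by its brightest tested probe, and 31.3% of 14705 genes were higher and 32.7% lower (64.0% in either direction), with a median ratio of -0.01. Those percentages are the background for each count that follows. With the slide as a random block, 42 genes were higher and 141 lower in all, and of the genes in the lists below Myh6 alone was called. A gene's SD over the 3 arrays stands after ±.

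Of 15 other deacetylase genes, 1 was higher, 6 were lower (3 with median centring in place of loess) and 8 did not pass (median -0.22). Hdac4, a class IIa deacetylase of muscle, was lower (-0.88 ± 0.33, limma adjusted p = 0.000525), and Hdac5 (-0.63 ± 0.06) and Hdac9 (-0.57 ± 0.35) of the same class were lower too. Hdac7, also of class IIa, had ratios of 0.33, 0.23 and -0.71 and did not pass (adjusted p = 0.836). The sirtuins, which are deacetylases dependent on NAD, moved apart: Sirt1 rose 2.61-fold (1.39 ± 0.25), while mitochondrial Sirt4 fell (-1.11 ± 0.03), as did Sirt2 (-0.97 ± 0.14) and Sirt3 (-0.67 ± 0.12). Hdac8, the remaining class I gene, lay at -0.27 ± 0.29 and did not pass (adjusted p = 0.0956).

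The complexes that HDAC1 and HDAC2 share held 9 genes that were higher and 10 lower of 32 tested, with a median ratio of 0.01. Within NuRD, a complex that couples deacetylation to nucleosome remodelling, 3 of 11 were higher and 4 lower (1 lower with median centring). The histone-binding subunit gene Rbbp7 fell 3.5-fold (-1.81 ± 0.15), while its close relative Rbbp4 rose (0.59 ± 0.05). The methyl-CpG-binding domain genes also moved apart, with Mbd3 higher (0.85 ± 0.07) and Mbd2 lower (-0.90 ± 0.41).

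Of 12 SIN3 subunit genes, 5 were higher and 0 lower, though 2 were lower in the fit with dye orientation (median 0.15). The count of higher genes was 4 without replicate 1, 3 without replicate 2, 7 without replicate 3 and 3 with median centring. Suds3 rose 2.23-fold (1.16 ± 0.13), followed by Sap30 (0.98 ± 0.19), Brms1 (0.84 ± 0.16) and Ing1 (0.35 ± 0.12). The scaffold genes Sin3a (0.10 ± 0.21) and Sin3b (-0.12 ± 0.29) did not pass.

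CoREST, which pairs HDAC1 and HDAC2 with the demethylase LSD1, had 6 of 9 genes lower (3 with median centring, 4 without replicate 2) and 1 higher (median -0.49). Its 3 scaffold genes differed in direction: Rcor3 fell 3.13-fold (-1.65 ± 0.08), Rcor1 fell 2.42-fold (-1.27 ± 0.15), and Rcor2 rose 1.82-fold (0.87 ± 0.25). Zmym3 fell as well (-1.29 ± 0.36). Kdm1a, the gene of LSD1, lay at -0.17 ± 0.28 and did not pass.

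Among 5 tested genes of the NCoR complex, in which HDAC3 acts, the median ratio was -0.13, and Tbl1x was lower (-0.78 ± 0.09). The scaffold gene Ncor1 (0.29 ± 0.14, limma adjusted p = 0.0392) and Gps2 (0.29 ± 0.09) were slightly higher. The call for Ncor1 was lost in 7 of 13 alternatives and that for Gps2 in 6 of 13.

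Of 17 TIP60 complex genes, 10 were higher and 3 lower, with a median ratio of 0.38. Actl6a, an actin-related subunit, rose 2.54-fold (1.35 ± 0.07), Meaf6 2.15-fold, Mbtd1 2.06-fold (1.05 ± 0.23), and the helicase gene Ruvbl1 1.89-fold (0.92 ± 0.21). Kat5, the gene of the catalytic subunit TIP60 itself, lay at 0.25 ± 0.12 (limma adjusted p = 0.0642), and Epc2, the paralogue of Epc1, at 0.02 ± 0.15 (adjusted p = 0.897). Leaving out each replicate in turn gave 6 to 10 that were higher (6 without replicate 2) and 3 lower, and median centring gave 6 and 0.

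Of 9 other acetyltransferase genes, 5 were higher and 1 lower (median 0.31). Only 2 were higher without replicate 1, without replicate 2, with median centring and in the authors' processed values. Kat2a, the gene of GCN5, was higher (0.83 ± 0.30), as were Hat1 (0.50 ± 0.04) and Kat6a (0.48 ± 0.37), a call that was lost in 7 of 13 alternatives. Crebbp, the gene of CBP, was lower (-0.52 ± 0.23), and its call was lost in 4 of 13 alternatives.

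**Figure D4:**
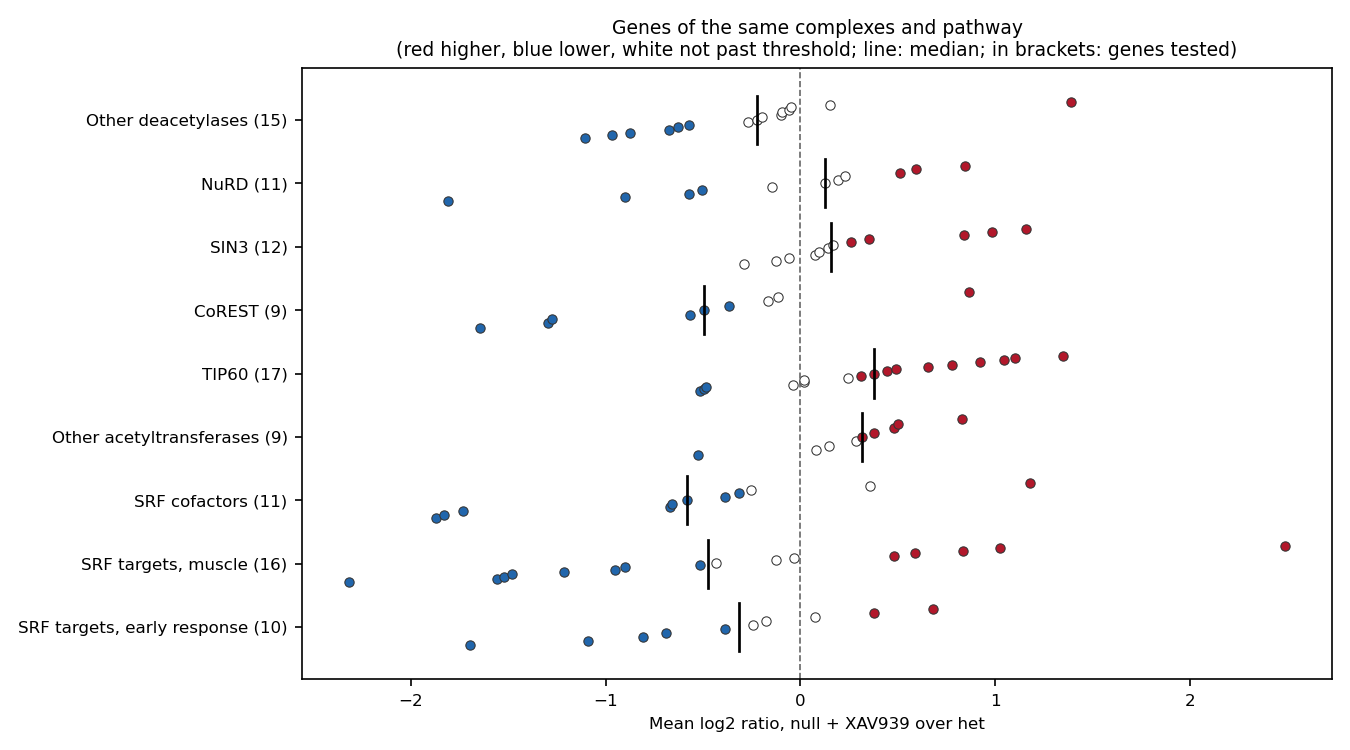
Mean log2 ratio of null cultures with XAV939 over heterozygous cultures (horizontal axis) for each tested gene of 9 lists, with red for higher, blue for lower and white for genes past no threshold, and the list median as a black line. The medians run from -0.59 for SRF cofactors to 0.38 for TIP60 genes.

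Of 11 SRF cofactor genes, 8 were lower and 1 higher, with a median ratio of -0.59. The count of lower genes was 4 with median centring and 5 with marked local backgrounds kept or with the authors' processed values. Myocd, the gene of myocardin, the SRF coactivator of heart and smooth muscle, fell 3.56-fold (-1.83 ± 0.26, limma adjusted p = 4.85e-06). The LIM protein genes Csrp3 (-1.87 ± 0.43) and Csrp2 (-1.74 ± 0.10) fell by similar amounts. Of the coactivators that respond to actin, Mrtfb was lower (-0.39 ± 0.10, lost in 6 of 13 alternatives), while Mrtfa had ratios of 0.07, 0.17 and 0.81 and did not pass (0.35 ± 0.40, adjusted p = 0.0659). Elk3, an ETS factor that joins SRF, rose 2.26-fold (1.18 ± 0.11).

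Known SRF targets of muscle and cytoskeleton moved in both directions, with 8 of 16 lower and 5 higher (median -0.48). Myh6, the cardiac α-myosin gene and also 1 of the cardiomyocyte markers above, fell 4.99-fold (-2.32 ± 0.10), Cald1, the caldesmon gene, 2.94-fold (-1.56 ± 0.16), and Nppa, the atrial natriuretic peptide gene, 2.87-fold (-1.52 ± 0.30). Actg2, the smooth muscle γ-actin gene, rose 5.61-fold (2.49 ± 0.28). The 4 others that were higher were Cnn1 (1.03 ± 0.25), Vcl (0.84 ± 0.34), Tagln (0.59 ± 0.03) and Flna (0.48 ± 0.33). Smooth muscle genes lay on both sides: Actg2, Cnn1 and Tagln were higher, Acta2 (-0.52 ± 0.25), Myl9 (-0.90 ± 0.15) and Cald1 were lower, and Smtn (-0.03 ± 0.23) did not pass. With median centring 5 of the 16 were lower.

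Of 10 tested SRF targets of the early response, 5 were lower and 2 higher (median -0.32). Ccn1, a matrix signalling gene, fell 3.25-fold (-1.70 ± 0.10), Fos 2.13-fold (-1.09 ± 0.19), Nr4a1 1.75-fold (-0.81 ± 0.04) and Ccn2 1.61-fold (-0.69 ± 0.20). Ier2 (0.68 ± 0.19) and Egr2 (0.38 ± 0.02) were the 2 that were higher. The call for Egr2 was lost in 6 of 13 alternatives, with ratios from 0.16 to 0.96. With median centring 2 of the 10 were lower and 1 was higher.

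The CArG boxes of muscle and cytoskeletal SRF targets are shown beside that of Hopx to compare the letters with the ratios. Each line gives 30 bases of RefSeq sequence (GRCm38.p6) with the match in capitals.
Hopx, chr5:77115187-77115216, minus strand: taacccgagtCCAAATAAGGaagctgggga
Actc1, chr2:114052903-114052932, minus strand: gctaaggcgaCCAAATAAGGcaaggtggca
Myl9, chr2:156775293-156775322, plus strand: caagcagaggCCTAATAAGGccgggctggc
Vcl, chr14:20929161-20929190, plus strand: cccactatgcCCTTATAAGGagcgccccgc
Acta1, chr8:123894829-123894858, minus strand: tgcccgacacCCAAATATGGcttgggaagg

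Actc1, the cardiac α-actin gene, carries the same 10 letters as Hopx and was lower (-0.95 ± 0.38). Myl9, a smooth muscle myosin light chain gene, was lower (-0.90 ± 0.15), Vcl, the vinculin gene, was higher, and Acta1, the skeletal α-actin gene, lay at -0.13 ± 0.26 without passing. In the other SRF lists, the cofactor genes Fhl1 (-0.66 ± 0.06) and Fhl2 (-0.67 ± 0.14) held a box and were lower. Egr2, an early response gene, held a box and was higher (0.38 ± 0.02). Genes with a box thus lay on both sides of 0. Of the muscle and cytoskeletal targets, 4 of 13 genes with a promoter in the table held a box. The counts were 2 of 9 for cofactor genes and 1 of 7 for early response targets, against 1.62% of all 27025 genes. The target lists were chosen as known SRF targets, so a share above that of all genes tests nothing here. None of the 14 deacetylase and 15 TIP60 genes matched held these letters.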

How the data were processed

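The members, gene lists and tests were chosen with earlier results of these data known. Per the file headers, the deposited spot and background signals are median pixel intensity in Cy3 and Cy5 from Agilent Feature Extraction 11.5.1.1 (8.5.1.1 per the submitters' processing notes), on probe design 026655 annotated on mm9. A further deposited column is a log10 ratio (red over green), and other columns used are the software's error and 0 or 1 marks. The authors' processed values are deposited ratios that track, on a log2 scale, those of the main processing described below (r 0.93, 0.98 and 0.97). Their normalization and centring are not given in the sources used here (medians 0.086, -0.08 and 0.053).

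From these, backgrounds marked as outliers were replaced by the channel's median, signals corrected by normexp (offset 50) and normalized by loess in limma 3.58.1 (R 4.3.3), and spots of a probe averaged. Tested probes had, on each array, a channel marked well above background. Of 39429 probes, 28025 had a symbol by RefSeq accession. limma compared the mean ratio with 0, with Benjamini-Hochberg adjustment over 24376 probes and a threshold of 0.05. Signals per group came from Aquantile scaling between arrays. Named genes are all member probes, in each list the 4 largest called ratios of 1 sign on all arrays, 7 cofactor and paralogue genes, and the genes beside Hopx, except 1 listed gene that is not reported here. A few further genes (Hdac5, Hdac9, Sirt3, Sin3a, Sin3b, Kdm1a, Actc1, Myl9, Acta1, Vcl, Cnn1, Tagln, Flna, Ier2, Egr2, Paics, Arl9, Uty, Ddx3y, Hdac7, Acta2, Smtn, Fhl1, Fhl2, Hbb-bh1) were named after their values were seen. limma's duplicateCorrelation gives no estimate for 3 arrays, so the slide correlation (0.92) was taken from the same mixed model fitted per probe. The test was checked on simulated data. With 3 arrays precision is limited. The median SD between arrays was 0.17, and p-values measure the spread between these 3 arrays.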

Additional observations from a re-analysis of the deposited data

How the results depend on the processing

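Both Hopx probes and all 3 Hdac1 probes kept their direction in every alternative run. With median centring in place of loess, 4495 probes were higher and 3180 lower (3037 and 2051 genes), and Hdac2 (0.38, limma adjusted p = 0.139) and Srf probe A_55_P2149540 (0.47, adjusted p = 0.104) did not pass. Keeping the marked local backgrounds gave fewer calls. Then 3447 probes were higher and 2554 lower (2437 and 1990 genes), and Hdac2 (0.22), Epc1 probe A_52_P219943 (0.40) and Srf probe A_55_P2149540 (0.33) did not pass. In the authors' processed values Hdac2 (0.19) and Srf probe A_55_P2149540 (0.28) did not pass, and Hdac3 turned to -0.0503. With the slide as a random block, 67 probes were higher and 169 lower (42 and 141 genes). Hdac2 (0.37), Epc1 probe A_52_P219943 (0.63), Hdac1 probes A_55_P1970775 (1.11) and A_55_P2077608 (1.37), Hopx probe A_55_P2011286 (-2.25, adjusted p = 0.0583) and Srf probe A_55_P2149540 (0.30) did not pass there, while the other Hopx and Hdac1 probes did. Leaving out each replicate in turn gave 0.25 to 0.36 for Srf probe A_55_P2149540, 0.16 to 0.34 for Srf probe A_51_P100289, 0.33 to 0.44 for Hdac2, -0.26 to -0.15 for Epc1 probe A_52_P117197 and -0.0777 to 0.0982 for Hdac3. With replicate 3 as labelled, 0 probes and 0 genes were called in either direction (30 probes higher and 66 lower at an unadjusted p below 0.05), and all members had an adjusted p of 0.999. The ratios were then -0.89 and -0.64 for Hopx, 0.65, 0.55 and 0.85 for Hdac1, 0.0491 for Hdac2, -0.14 for Hdac3, -0.0368 and 0.25 for Epc1 probes A_51_P380986 and A_52_P219943, and 0.0218 for Srf probe A_55_P2149540. The causes were not tested. The main test pairs the groups within each array, and with a single group of ratios no further block by replicate number could be fitted. The ratio of the dim Hdac2 probe ran from 0.19 to 0.84 over the settings with replicate 3 turned. The part of its low signal in that range was not tested.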
